A study of Mus musculus with 6 samples.

Results

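The 9 genes described here encode parts of the tight junction and of the related adhesion belt of endothelial cells: Cgnl1 (paracingulin), Cgn (cingulin), Tjp1 (ZO-1), Cldn5 (claudin 5), Ocln (occludin), F11r (JAM-A), Jam2 (JAM-B), Jam3 (JAM-C) and Esam. They were taken by symbol from the deposited count table of 22905 genes. All 9 were found there and all 9 passed the filter on low counts that left 14439 genes for testing. The set was put together with results of the DOX and PBS comparison known, Cgnl1 being the gene it is named after, so the comparison is given for its members as a description, without p-values, and nothing is supported with it.

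RNA came from primary hepatic stellate cells of mice of the genotype BucheKI/KI-Hep, which all groups shared, and CCl4 treatment (carbon tetrachloride, which injures the liver and leads to fibrosis) was likewise common to all. PBS and DOX were given by the labels for 3 libraries each. Per the series design, hepatocytes over-expressed butyrylcholinesterase, the product of Bche, and stellate cells were then isolated. The age of the mice, the promoter behind the introduced gene, the dose and timing of DOX, and whether a library came from 1 animal or a pool are not stated in the labels. Groups without CCl4 or with DOX in animals lacking the introduced gene were not analysed here, so DOX and the introduced gene cannot be told apart.

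Libraries held between 36220282 and 37707364 counts. Bche itself, the target, had 8 to 26 counts per PBS library and 582 to 3639 per DOX library. The labelled cell type had low marker levels. Summed over 12 stellate cell markers there were 158 to 394 CPM (counts scaled to a common library size) in PBS and 219 to 311 CPM in DOX. Rgs5 and Reln, the most abundant of that list, reached 124 and 111 CPM. Lrat and Gfap, both picked from that list after their values were seen, had at most 3.51 and 0.0818 CPM. Summed over 16 endothelial markers there were 6320 to 7910 CPM in PBS against 5500 to 6590 CPM in DOX, and over 12 macrophage markers 3910 to 5870 CPM in PBS against 6990 to 12700 CPM in DOX. The junction transcripts below are therefore described for each library as a whole, without assigning them to stellate cells. The labels do not say whether replicates are separate cultures or animals, so any p-value covers the spread between these libraries, which may be technical.

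Tight junctions seal the cleft between neighbouring cells. Their strands are built from claudins, with occludin and the immunoglobulin-like JAM proteins beside them, and ZO scaffolds tie these membrane proteins to actin. Cingulin and its relative paracingulin bind ZO-1 on the cytoplasmic side and hold regulators of small GTPases, paracingulin at both tight and adherens junctions. Hepatocytes and bile duct cells carry epithelial junctions sealed by several claudins. Endothelial cells use claudin 5, JAMs and ESAM together with VE-cadherin, which Cdh5 encodes.

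Within the set the Cgnl1 transcript stood lower in DOX in every library, while its paralog Cgn and the most abundant members, Cldn5 and Esam, had values that overlapped between the groups. Ocln and F11r were higher in every DOX library, and the other members overlapped. By CPM the groups did not overlap for 3 of the 9 genes, 1 lower and 2 higher in DOX. Over all 14439 genes tested the groups did not overlap for 34.6%, 17.7% lower and 16.9% higher in DOX. The edgeR quasi-likelihood fit over all genes called 1 of the 9 members (adjusted p under 0.05), Cgnl1, where it called 6.41% of all genes tested. Since the comparison helped to choose the set, neither count nor the call of Cgnl1 is evidence for the set. The median log2 fold change of the 9 members was -0.02, beside -0.01 over all genes tested.

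**Figure D1:**
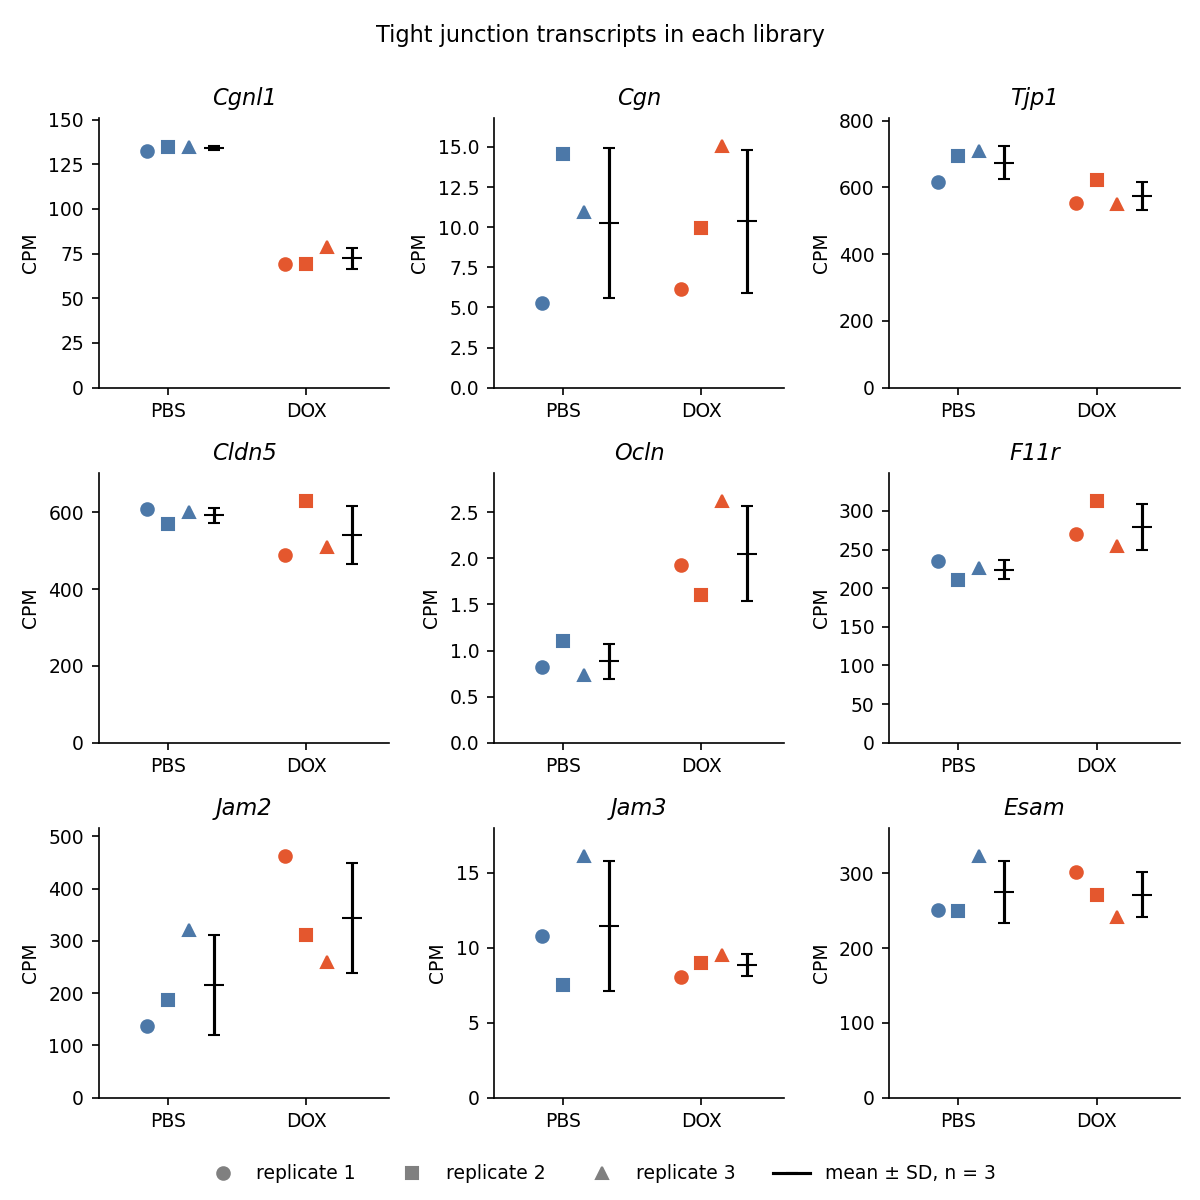
Normalised counts (CPM, vertical axes starting at 0) of the 9 tight junction genes in the 3 PBS and 3 DOX libraries. Points are libraries with a symbol for each replicate number, and black bars are mean ± SD of 3 libraries. The Cgnl1 points of DOX all lie below those of PBS, those of Ocln and F11r all lie above, and the other panels overlap.

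Cgnl1 lies on chromosome 9 from 71626509 to 71771602 on the minus strand (GRCm38, GENCODE M21), and no other annotated gene overlaps it. It had 133, 135 and 134 CPM in PBS replicates 1, 2 and 3 against 69.1, 69.0 and 78.9 in DOX replicates 1, 2 and 3. The PBS libraries were nearly equal, and the highest DOX library stood well below the lowest PBS library. The means were 134 ± 1.07 CPM and 72.3 ± 5.71 CPM (SD, n = 3 each), 1.85-fold lower in DOX, with a log2 fold change of -0.89 (SE 0.08). In bulk RNA, fewer cells that make a transcript and less of it per cell cannot be told apart. Leaving out any library kept the log2 fold change between -0.96 and -0.85. The fit called no gene at all without PBS replicate 2 or without PBS replicate 3, Cgnl1 included, although the log2 fold change of Cgnl1 was -0.89 in both cases.

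Cgn, the paralog that gave the family its name, lies on chromosome 3 from 94760069 to 94786492 on the minus strand. It had 5.30, 14.5 and 10.96 CPM in PBS replicates 1, 2 and 3 against 6.14, 9.97 and 15.03 in DOX replicates 1, 2 and 3. Both groups covered nearly the same range, with a log2 fold change of 0.02 (SE 0.43). Its sign changed with the scaling, at -0.10 by library totals alone and -0.0012 with upper-quartile factors, and it was -0.35 without DOX replicate 3 and 0.35 without PBS replicate 2. Keratin transcripts of epithelial and mesothelial cells were lowest in the same PBS library, Krt8 with 27.6, 77.7 and 70.3 CPM in PBS replicates 1, 2 and 3 against 98.7, 86.2 and 228 in DOX replicates 1, 2 and 3. Their part in the spread of Cgn was not tested. Per length, Cgnl1 exceeded Cgn in every library, by 17.0, 6.28 and 8.32 times in PBS replicates 1, 2 and 3 against 7.63, 4.70 and 3.56 times in DOX replicates 1, 2 and 3, a ratio that overlapped between the groups.

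The sequences ahead of the transcription starts of both paralogs are shown because Cgnl1 and Cgn, alike in protein role, differed in level here, with that of Cldn5, the most abundant member, beside them. Each is the 250 bases upstream of a RefSeq start (GRCm38.p6), written 5′ to 3′ along the gene, and capitals mark GC boxes (GGGCGG on either strand, the letters bound by Sp1). RefSeq gene spans of Cgnl1 and Cgn reach further upstream, so other starts exist, and the last 10 bases of the Cgn window lie within its GENCODE gene.
Cgnl1, chr9:71771603-71771852, minus strand: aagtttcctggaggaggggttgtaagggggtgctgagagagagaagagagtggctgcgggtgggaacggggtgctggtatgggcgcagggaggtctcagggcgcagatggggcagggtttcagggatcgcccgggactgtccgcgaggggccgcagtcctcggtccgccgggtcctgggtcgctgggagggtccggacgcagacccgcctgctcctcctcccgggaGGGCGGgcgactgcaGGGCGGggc
Cgn, chr3:94786483-94786732, minus strand: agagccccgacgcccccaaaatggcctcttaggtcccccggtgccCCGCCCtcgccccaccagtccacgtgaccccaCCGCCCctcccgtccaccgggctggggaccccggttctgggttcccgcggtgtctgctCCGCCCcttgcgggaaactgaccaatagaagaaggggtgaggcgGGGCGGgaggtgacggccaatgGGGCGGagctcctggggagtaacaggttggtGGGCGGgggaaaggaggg
Cldn5, chr16:18776597-18776846, plus strand: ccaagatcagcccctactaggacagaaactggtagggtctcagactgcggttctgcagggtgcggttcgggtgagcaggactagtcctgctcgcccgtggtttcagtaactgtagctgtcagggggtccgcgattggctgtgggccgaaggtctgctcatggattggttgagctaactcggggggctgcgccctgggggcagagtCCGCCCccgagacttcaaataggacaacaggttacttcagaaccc
The Cgnl1 window held 2 GC boxes, starting 24 and 9 bases before the start, the Cgn window 6 and the Cldn5 window 1. Of 32851 promoter windows of this length in the table, 32.7% held at least 1. CpG dinucleotides numbered 20, 19 and 12 in these windows, beside a median of 6 over all windows. No match to TATAAA (in 12.4% of all windows), to the ETS core CCGGAA (12.0%), to the E-box CAGGTG (17.2%) or to the AP-1 letters TGANTCA (6.75%) was present in these 3 windows on either strand, which says only that these letters are not in them. In the table used here, 6 of the 9 members had a promoter entry.

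Tjp1 encodes ZO-1, the scaffold to which cingulin and paracingulin bind, and lies on chromosome 7 from 65296165 to 65527781. Its CPM were 617, 695 and 708 in PBS replicates 1, 2 and 3 against 552, 622 and 549 in DOX replicates 1, 2 and 3. DOX replicate 2 reached just above PBS replicate 1, so the groups overlapped, and the log2 fold change was -0.23 (SE 0.11), or -0.36 by library totals alone. For every 100 FPKM of Tjp1 (reads scaled to gene length and library total, as the authors deposited them) there were 27.0, 24.3 and 23.8 FPKM of Cgnl1 in PBS replicates 1, 2 and 3 against 15.7, 13.9 and 18.0 in DOX replicates 1, 2 and 3. This ratio, which does not depend on library scaling, was lower in every DOX library. It repeats the known difference of Cgnl1 and adds no support.

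Cldn5 encodes the strand-forming claudin of endothelium and lies on chromosome 16 from 18776847 to 18778262. Its values were 608, 571 and 599.6 CPM in PBS replicates 1, 2 and 3 against 487, 628 and 509 in DOX replicates 1, 2 and 3. DOX replicates 1 and 3 were below all PBS libraries and DOX replicate 2 was above them. The means were 593 ± 19.4 and 542 ± 75.7 CPM (SD, n = 3 each), giving a log2 fold change of -0.13 (SE 0.12) that was -0.06 without DOX replicate 1, -0.25 without DOX replicate 2 and -0.26 by library totals alone. Cldn5 accounted for 97.9% to 98.5% of the summed FPKM of the claudin genes, the claudin-like Cldnd1 left out, in PBS and for 95.2% to 97.8% in DOX.

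Ocln encodes occludin, a membrane protein of epithelial tight junctions, and lies on chromosome 13 from 100496507 to 100552718. It was the rarest member, with 31, 42 and 29 counts in PBS replicates 1, 2 and 3 against 66, 57 and 96 counts in DOX replicates 1, 2 and 3. As CPM this was 0.821, 1.10 and 0.732 in PBS replicates against 1.93, 1.604 and 2.62 in DOX replicates. Every DOX library was above every PBS library, and the log2 fold change was 1.21 (SE 0.32), between 0.998 and 1.40 with each library left out. On the log2(FPKM + 1) scale, which understates the change of low genes, it was 0.27. Some markers of epithelial cells were higher in every DOX library and others overlapped. Of 7 cholangiocyte markers tested, the groups did not overlap for 4, all higher in DOX, beside 16.9% of all genes tested. Anxa4 and Slc4a2, the most abundant, overlapped. Epcam had 0.821, 1.57 and 0.858 CPM in PBS replicates 1, 2 and 3 against 2.60, 3.01 and 4.23 in DOX replicates 1, 2 and 3, and was picked after its values were seen. Alb, the albumin gene of hepatocytes, had 85.4, 166 and 208 CPM in PBS replicates 1, 2 and 3 against 346, 116 and 1861 in DOX replicates 1, 2 and 3. Summed over 14 hepatocyte markers there were 154 to 394 CPM in PBS against 282 to 3490 CPM in DOX, which overlapped, DOX replicate 2 lying below PBS replicates 2 and 3. All 14 had a positive log2 fold change (median 2.60), and 3 were higher in every DOX library, beside 16.9% of all genes tested. Their part in the difference of Ocln was not tested.

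F11r encodes JAM-A, an adhesion protein of endothelium, epithelium, platelets and leukocytes, and lies on chromosome 1 from 171437535 to 171464603. It had 235, 210.3 and 227 CPM in PBS replicates 1, 2 and 3 against 270.5, 312 and 255 in DOX replicates 1, 2 and 3. All DOX libraries were above all PBS libraries, by 1.25-fold between means, with a log2 fold change of 0.32 (SE 0.11) that was 0.19 by library totals alone. Macrophage transcripts differed in the same direction in these libraries, all 12 markers having a positive log2 fold change (median 1.23). For 9 of 12 the groups did not overlap, all higher in DOX, beside 16.9% of all genes tested. The 10 platelet markers summed to 674 to 863 CPM in PBS against 596 to 794 CPM in DOX, nearly all of it Itgb3, which other cells also make. Pf4 (platelet factor) was present in every library, at 5.65 to 17.5 CPM, and Itga2b at 1.59 to 7.80 CPM, both with overlapping groups, while the other markers of the list reached no more than 0.382 CPM, that of Ppbp. Itga2b and Ppbp were picked after their values were seen. What part macrophage or platelet RNA had in the F11r values was not tested.

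Jam2 encodes JAM-B, which binds JAM-C on neighbouring cells, and lies on chromosome 16 from 84774123 to 84825928. Its libraries spread more than those of the other abundant members, at 137, 186 and 321 CPM in PBS replicates 1, 2 and 3 against 461, 310.3 and 259 in DOX replicates 1, 2 and 3. PBS replicate 3 lay above both DOX replicates 2 and 3. The means were 215 ± 95.5 and 343.5 ± 105 CPM (SD, n = 3 each) with a log2 fold change of 0.68 (SE 0.34), which was 1.09 without PBS replicate 3, 0.43 without PBS replicate 1 and 0.41 without DOX replicate 1. Rgs5, a pericyte gene and the most abundant of the stellate list, had the same order within each group, at 31.7, 33.1 and 81.8 CPM in PBS replicates 1, 2 and 3 against 124, 96.6 and 53.4 in DOX replicates 1, 2 and 3. Its part in the Jam2 values was not tested.

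Jam3 encodes JAM-C and lies on chromosome 9 from 27097384 to 27155421, where an antisense gene, Gm48796, overlaps its exons. Whether counting used the strand is not stated in the labels, so reads of the 2 genes cannot be told apart. Counts under this symbol came to 10.8, 7.48 and 16.1 CPM in PBS replicates 1, 2 and 3 against 8.07, 9.01 and 9.49 in DOX replicates 1, 2 and 3. All DOX values fell inside the range of PBS, and the log2 fold change of -0.37 (SE 0.27) was -0.05 without PBS replicate 3 and -0.60 without PBS replicate 2.

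Esam encodes an endothelial and platelet adhesion protein of the same immunoglobulin family and lies on chromosome 9 from 37528078 to 37538319. It had 252, 250.1 and 323 CPM in PBS replicates 1, 2 and 3 against 302, 271 and 242 in DOX replicates 1, 2 and 3. The groups overlapped and the log2 fold change was -0.02 (SE 0.14), turning to 0.11 without PBS replicate 3 and to 0.06 without DOX replicate 3. Within the immunoglobulin members its share was steadier than its level. Esam made up 52.1%, 52.2% and 52.2% of the summed FPKM of F11r, Jam2, Jam3 and Esam in PBS replicates 1, 2 and 3 against 44.6%, 43.5% and 45.5% in DOX replicates 1, 2 and 3, so its share was lower in every DOX library. Jam2 took 10.4%, 14.3% and 19.2% in PBS and 25.1%, 18.4% and 17.9% in DOX, and F11r 27.4% to 37.5% over all libraries. The summed FPKM of the 4 genes was 266 to 352 in PBS and 290.0 to 337 in DOX. These shares and sums rest on the gene lengths behind the deposited FPKM, for Esam 1854 bases against 2867 exon bases in GENCODE.

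Ordered by level per length, Cldn5 was the highest member with a mean of 402 FPKM over the 6 libraries (lowest 318, median 422, highest 448), followed by Esam (147.5), F11r (100.9), Tjp1 (65.6), Jam2 (54.8), Cgnl1 (13.8), Jam3 (2.50), Cgn (2.02) and Ocln (0.343). Library values of neighbours in this order did not overlap except for Tjp1 and Jam2, and for Jam3 and Cgn. The order rests on the gene lengths behind the deposited FPKM. These differ from the exon bases in GENCODE, at 1854 against 2867 for Esam, 2482 against 2663 for F11r and 9558 against 7811 for Tjp1. The order and its overlaps with GENCODE lengths were not examined. Jam2 stood above Tjp1 in DOX, at 64.8 ± 17.4 against 57.5 ± 4.02 FPKM, and below it in PBS, at 44.8 ± 20.5 against 73.7 ± 6.73 FPKM (SD, n = 3 each), with values that overlapped in both groups. Of all genes tested, 99.1% had a lower mean FPKM than Cldn5, 70.4% than Cgnl1, 39.0% than Jam3, 35.7% than Cgn and 14.5% than Ocln. Cldn5, Esam, F11r, Tjp1 and Jam2 were thus abundant, Cgnl1 intermediate, and Jam3, Cgn and Ocln low in these libraries.

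**Figure D2:**
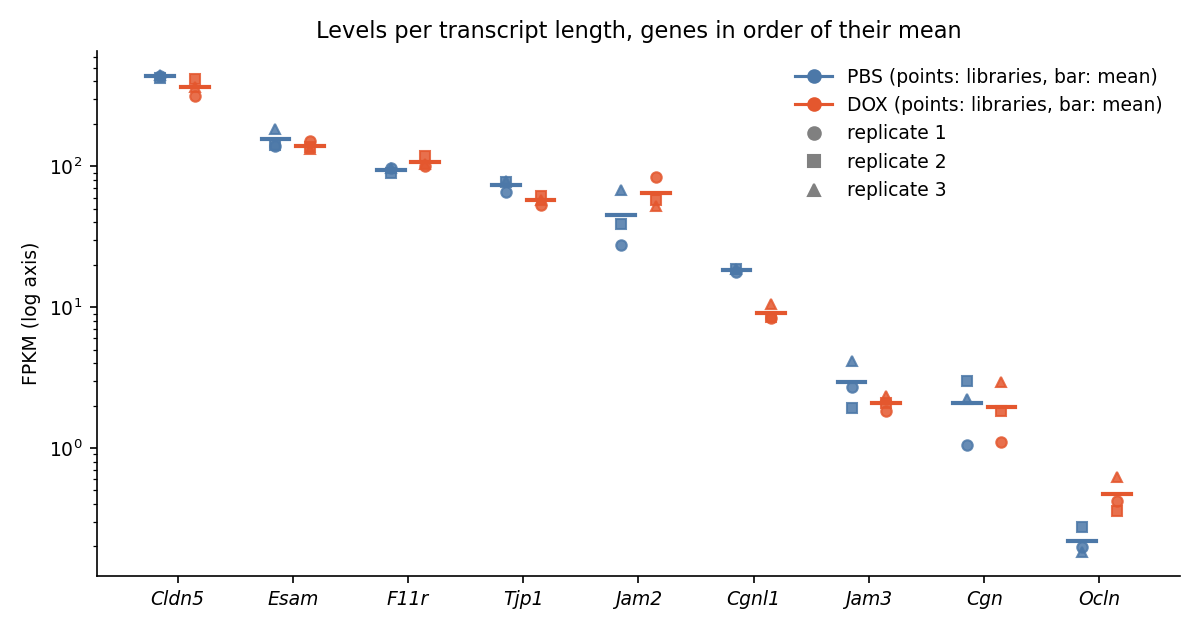
Deposited FPKM (log axis) of the 9 tight junction genes in order of their mean over the 6 libraries. Points are libraries, with a symbol for each replicate number, and horizontal bars are group means of 3 libraries. Cldn5 lies between 318 and 448 FPKM and Ocln between 0.183 and 0.625 FPKM, and Cgnl1 lies below the 5 most abundant members.

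The members were also set against Cdh5, the VE-cadherin transcript of the same library. Cdh5 had 2350.0, 2749 and 2740.0 CPM in PBS replicates 1, 2 and 3 against 2544, 2523 and 2000.0 in DOX replicates 1, 2 and 3 (log2 fold change -0.15 with SE 0.15, adjusted p = 0.543 by edgeR). For every 100 FPKM of Cdh5 there were 3.0, 2.60 and 2.60 FPKM of Cgnl1 in PBS replicates 1, 2 and 3 against 1.44, 1.45 and 2.09 in DOX replicates 1, 2 and 3. Cgnl1 was lower in every DOX library on this scale. As Cgnl1 was known to be lower and Cdh5 overlapped between the groups, this repeats its difference and adds no support. Tjp1 had 10.9 ± 0.208 in PBS and 10.4 ± 1.22 in DOX on this scale, Cldn5 65.1 ± 7.63 and 66.1 ± 9.95, and Esam 22.9 ± 2.94 and 25.2 ± 1.61 (SD, n = 3 each), all with overlapping groups. Jam2 had 4.67, 5.43 and 9.41 in PBS and 14.5, 9.87 and 10.4 in DOX, and F11r had 16.3, 12.4 and 13.5 in PBS and 17.3, 20.1 and 20.7 in DOX. Both were higher in every DOX library on this scale. A ratio shows unequal change of its 2 transcripts and not which of them changed.

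**Figure D3:**
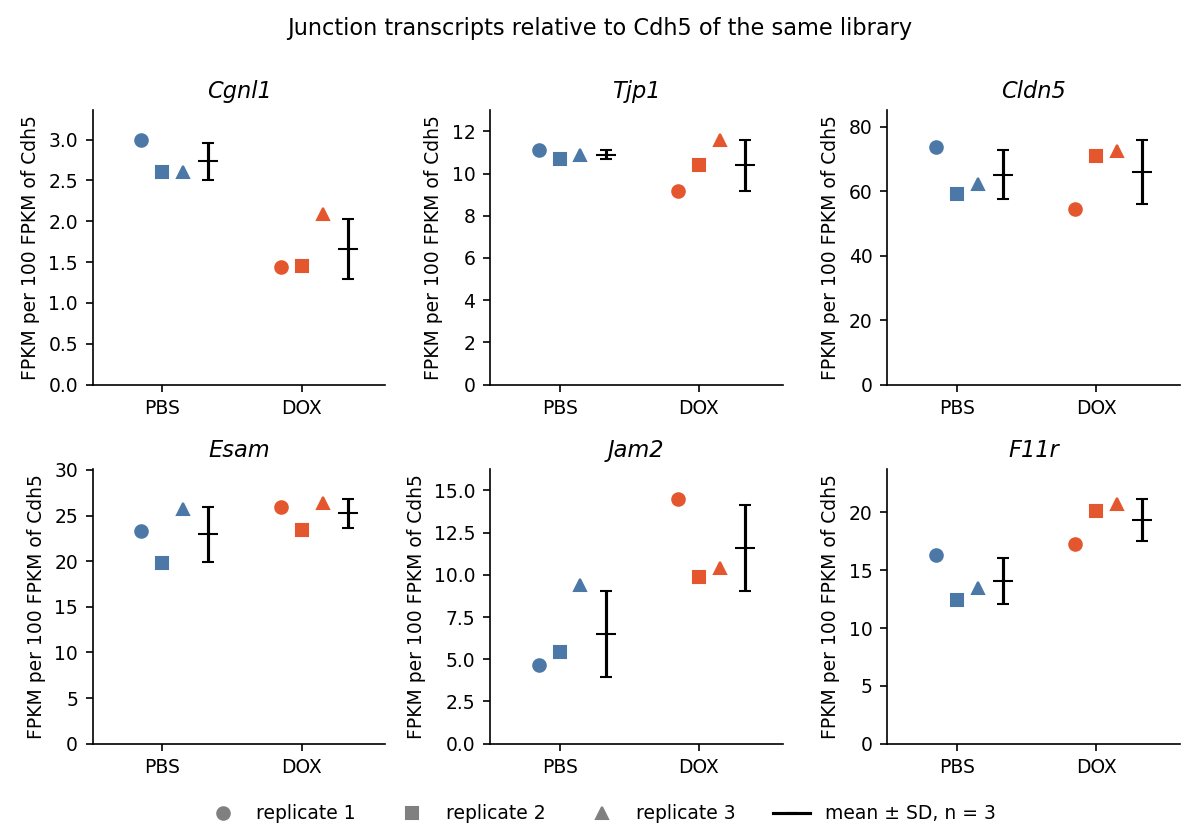
FPKM of 6 junction genes for every 100 FPKM of Cdh5 in the same library (vertical axes start at 0), for 3 PBS and 3 DOX libraries. Points are libraries and black bars are mean ± SD of 3. Cgnl1 is from 2.60 to 3.0 in PBS, above its DOX range of 1.44 to 2.09, Tjp1, Cldn5 and Esam overlap, and Jam2 and F11r are higher in every DOX library.

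Endothelial identity genes give the context of the Cgnl1 difference. Of 16 such genes tested, 3 fell and 0 rose by the edgeR fit, where 2.04% of all genes tested fell and 4.38% rose (294 and 632 genes, or 730 and 611 by library totals alone), and the median log2 fold change was -0.38. The 3 that fell were Tek (log2 fold change -0.80, edgeR adjusted p = 0.0311), the angiopoietin receptor, Ptprb (-0.76, edgeR adjusted p = 0.0240), the endothelial phosphatase that acts on it, and Sox17 (-0.70, edgeR adjusted p = 0.0291), an endothelial transcription factor. These 3 and the sinusoidal genes other than Lyve1 below were chosen after their values were seen. Of the 16, 13 had a log2 fold change below 0, and the groups did not overlap for 8 that were lower and 1 that was higher in DOX, beside 17.7% and 16.9% of all genes tested. The list's summed CPM overlapped between the groups. Among genes of sinusoidal endothelium, Lyve1, Stab2, Stab1 and Fcgr2b had overlapping groups and log2 fold changes of 0.23, 0.01, -0.44 and -0.25, and Clec4g was higher in every DOX library (0.48). The part that endothelial RNA as a whole had in the Cgnl1 values was not tested. The ratio to Cdh5 cannot stand for it, since Cdh5 had a log2 fold change of -0.15, smaller than the median of its list. Log2 fold changes within the list ran from -0.80 (Tek) to 0.48 (Clec4g), so such a ratio depends on the gene chosen.

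The 5 genes whose pattern was most like that of Cgnl1, by Pearson's r of log2 CPM over the 6 libraries, were Sh3rf1, Zfp866, Scamp1, Dchs1 and Jade3, with r between 0.9962 and 0.9996. Dchs1, which encodes a large protocadherin, had 69.5, 67.1 and 71.1 CPM in PBS replicates 1, 2 and 3 against 31.9, 32.0 and 35.7 in DOX replicates 1, 2 and 3, 2.09-fold lower in DOX. Sh3rf1 had 28.6, 28.5 and 28.4 CPM in PBS and 19.2, 19.1 and 20.7 CPM in DOX. Like Cgnl1, both had a tight PBS group and were lowest in DOX replicates 1 and 2. An r of at least 0.95 was reached by 261 of 9759 genes compared (2.67%), so a high r is not rare with 6 libraries that fall into 2 groups. Of the other members, Tjp1 had an r of 0.77 with Cgnl1, Cldn5 0.46, Jam3 0.44, Cgn 0.05, Esam -0.03, Jam2 -0.67, Ocln -0.86 and F11r -0.89.

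The rest of the junction machinery was followed in 6 lists of 95 genes that leave out the 9 members, of which 83 are in the count table and 73 passed the filter. Of these 73, 3 rose (Jaml, Ildr1 and Arhgap17) and 2 fell (Amot among them) by the edgeR fit, 6.85% in all, near the 6.41% of all genes tested. The median log2 fold change of the 73 genes was 0.12, and 41 of 73 were above 0, beside 48.6% of all genes tested. Adjusted p under 0.05 was not reached by any of the 73 without PBS replicate 2, without PBS replicate 3 or without DOX replicate 1. Without PBS replicate 1, DOX replicate 2 and DOX replicate 3, the filter left 78, 77 and 74 junction genes, of which 3, 2 and 6 passed. Cldn14, which passed without DOX replicate 2, is not among the 73.

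Jaml and Ildr1 were rare transcripts that rose several-fold. Jaml, an immunoglobulin protein by which leukocytes bind epithelial junctions, had 1.17, 0.549 and 0.328 CPM in PBS replicates 1, 2 and 3 against 5.85, 3.86 and 4.94 in DOX replicates 1, 2 and 3, 7.17-fold higher in DOX (log2 fold change 2.84 with SE 0.47, adjusted p = 0.0277 by edgeR). Ildr1, which encodes an angulin of the corners where 3 cells meet, had 0.503, 0.628 and 0.328 CPM in PBS and 3.07, 3.38 and 1.42 CPM in DOX (log2 fold change 2.42 with SE 0.44, adjusted p = 0.0317 by edgeR). Lymphocyte markers stood higher in the same libraries, at 2.04 to 4.77 CPM summed over 10 genes in PBS and 6.53 to 15.3 CPM in DOX, as did macrophage markers, and their part in either gene was not tested. Both calls were lost without PBS replicate 2, PBS replicate 3 or DOX replicate 1, and that of Ildr1 also without PBS replicate 1 or DOX replicate 2.

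Among 21 scaffold and polarity genes tested, 2 fell and 0 rose, beside 2.04% and 4.38% of all genes tested. Amot, the angiomotin that binds polarity proteins and YAP, fell 1.68-fold, from 11.1 ± 0.743 to 6.63 ± 0.567 CPM (SD, n = 3 each, edgeR adjusted p = 0.0352). Ybx3 and Afdn (afadin), the most abundant of the list per length, had log2 fold changes of -0.27 and -0.26 (edgeR adjusted p = 0.260 and 0.102). Of the 21, 15 had a log2 fold change below 0, with a median of -0.22. The call of Amot was lost when any library other than DOX replicate 3 was left out.

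Of 21 partners of the cingulin family and regulators of small GTPases tested, 1 rose and 0 fell, beside 4.38% and 2.04% of all genes tested. Of the 21, 15 had a log2 fold change above 0, with a median of 0.23. Arhgap17, a GTPase activating protein for Cdc42 at tight junctions, rose 1.41-fold from 90.2 ± 3.75 to 127 ± 10.9 CPM (SD, n = 3 each, log2 fold change 0.49 with SE 0.09, adjusted p = 0.0332 by edgeR) and was the gene called. Its call was lost without PBS replicate 2, PBS replicate 3, DOX replicate 1 or DOX replicate 2. Rap1b and Rhoa, small GTPases and the most abundant of the list per length, had log2 fold changes of 0.39 and 0.20 (edgeR adjusted p = 0.0871 and 0.226). Arhgef2, which encodes the exchange factor GEF-H1 that cingulin and paracingulin bind, had 161 ± 7.54 CPM in PBS against 163 ± 7.57 CPM in DOX (SD, n = 3 each, log2 fold change 0.02 with SE 0.08, adjusted p = 0.896 by edgeR), and Tiam1, a Rac activator that paracingulin binds, had a log2 fold change of 0.68 with SE 0.31 (adjusted p = 0.204 by edgeR). Arhgef2 and Tiam1 lie outside the rule for named genes and were named for this role. Whether any of these genes changed differently from Cgnl1 was not tested.

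Apart from Cldnd1, claudin genes other than Cldn5 were scarce, and none of the 8 tested passed in edgeR, with 4 at an unadjusted p under 0.05. DESeq2 called Cldn2, Cldn4, Cldn14 and Cldn15 of this list, of which Cldn2 and Cldn14 were below the filter of the edgeR fit, and limma-voom called none. In the edgeR fit 7 of 8 had a positive log2 fold change, with a median of 1.32. Cldnd1, a claudin-like gene, and Cldn12 were the most abundant per length, with log2 fold changes of 0.01 and -0.43 (edgeR adjusted p = 0.967 and 0.245). The epithelial Cldn4, named after its values were seen, had 1.19, 2.33 and 0.757 CPM in PBS replicates 1, 2 and 3 against 2.11, 3.8 and 8.13 in DOX replicates 1, 2 and 3 (edgeR adjusted p = 0.117). It was highest in DOX replicate 3, as was the hepatocyte marker sum, whose part was not tested.

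In the list of other immunoglobulin junction proteins Jaml was the 1 of 10 called, beside 6.41% of all genes tested. Pecam1 and Nectin2 were the most abundant per length. Pecam1, the endothelial PECAM-1, had 825, 895 and 821 CPM in PBS replicates 1, 2 and 3 against 743, 748 and 681 in DOX replicates 1, 2 and 3 (log2 fold change -0.23 with SE 0.10, adjusted p = 0.188 by edgeR), and Nectin2 had a log2 fold change of 0.12 (edgeR adjusted p = 0.582). None of 8 adherens junction genes passed by edgeR, with 2 at an unadjusted p under 0.05, 0 by limma-voom and 1 by DESeq2, Cdh1. Their median log2 fold change was -0.12. The most abundant were Cdh5 and Ctnnb1 (beta-catenin), the latter at 1822 ± 92.2 CPM in PBS against 1577 ± 51.6 CPM in DOX (SD, n = 3 each, edgeR adjusted p = 0.248). Tricellular and MARVEL genes had 1 of 5 called, Ildr1, and their most abundant members Lsr and Marveld1 had log2 fold changes of 1.13 and -0.27 (edgeR adjusted p = 0.135 and 0.544).

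**Figure D4:**
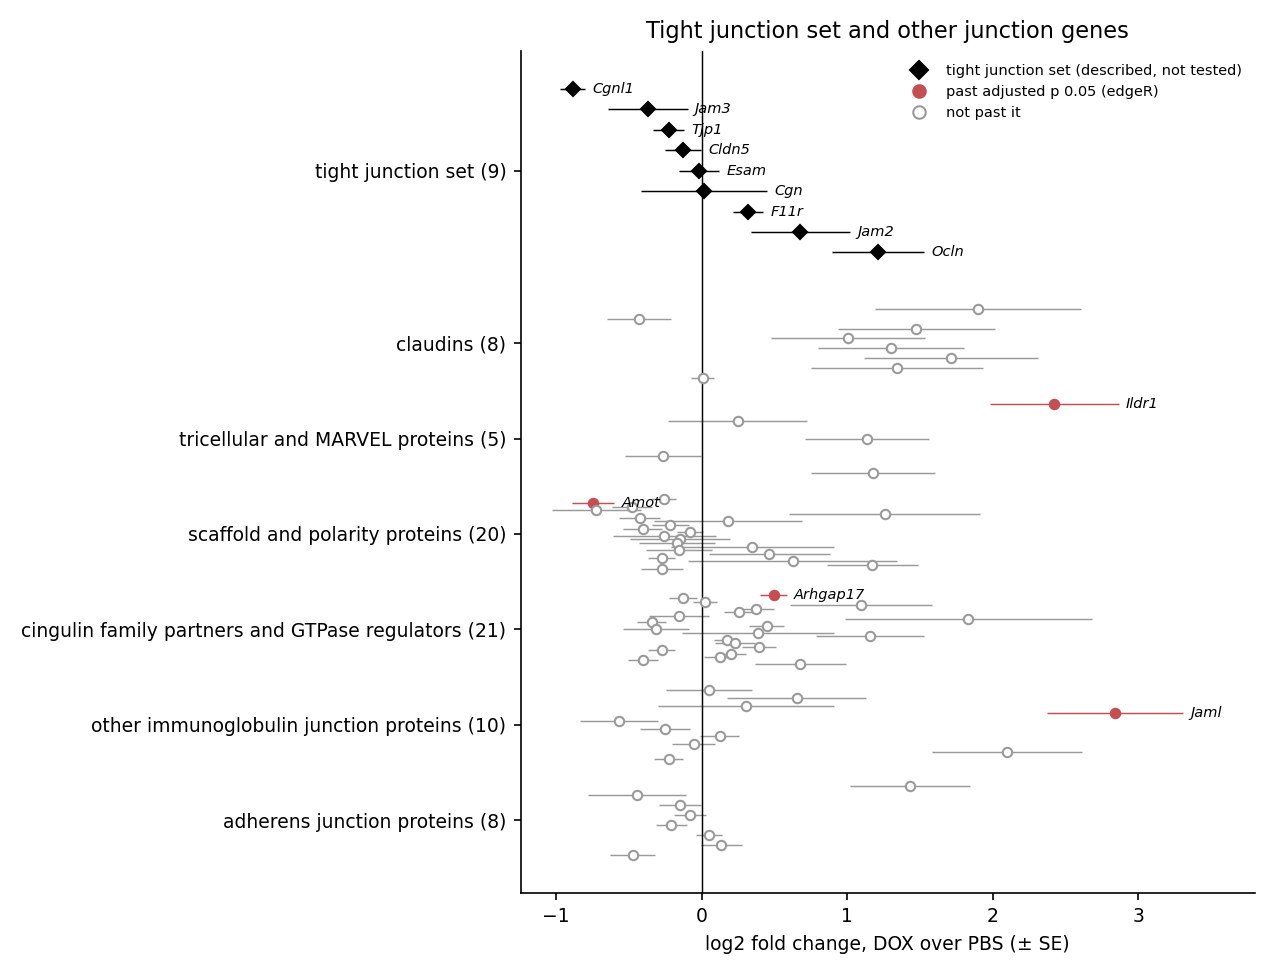
Log2 fold change of DOX over PBS (horizontal axis, bars are SE, 3 libraries a group) for the 9 tight junction genes and the other junction genes tested, 1 of them not drawn, by list with the number of genes drawn in brackets. Red points passed an edgeR adjusted p of 0.05 and black diamonds are the described set, of which Cgnl1 lies lowest at -0.89 and Ocln highest at 1.21.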

How the data were processed

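RNA of 6 libraries was turned into libraries with a SMARTER kit for mRNA, per the labels' protocols. The authors deposited raw read counts per gene symbol and FPKM values. The deposited FPKM equalled the count divided by a fixed gene length and the library total in 100% of values (tolerance 0.0001), so they carry no scaling for composition. The submitters' processing notes name the builds GRCm38, mm10 and hg38 with no role, while aligner, counter and strand use were not given in the sources used here. Coordinates are from GENCODE M21 (GRCm38) and promoters from RefSeq.

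Counts were fitted with the edgeR 4.0.16 quasi-likelihood test (R 4.3.3) on DOX and PBS with TMM factors and its filter on low counts (minimum count 10, minimum total 15). P-values were adjusted over all 14439 genes tested by Benjamini-Hochberg, with a threshold of 0.05. CPM uses TMM-scaled totals, and 1 read was worth 0.0252 to 0.0292 CPM. Correlations used log2 CPM with a prior count of 2 and genes of at least 5 CPM on average. In data simulated from these libraries, 55 of 100 genes changed by a log2 of 1 and 95 of 100 changed by 2 were recovered, and 7.41% of the calls were false. The simulation gave every gene the same dispersion, while the real genes differ in spread, so these rates do not hold for single genes.

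The members, 6 junction lists and 9 marker lists were chosen with earlier results of these data known. Genes were named by rule: the members, up to 4 called genes and the 2 most abundant tested genes per length of each junction list, the 5 genes most like Cgnl1 and the 2 most abundant of each marker list. Exceptions are marked, and 1 called junction gene, kept in the counts, is not reported here. Alternatives were other scalings and filters, DESeq2 1.42.0, limma 3.58.1 on counts and FPKM, a replicate block and leaving out each library. Lists were not tested as sets. Junction genes of the lists without a row under their symbol were not analysed here.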

Additional observations from a re-analysis of the deposited data

How the results depend on the processing

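The order of the member levels was the same in 7 of 7 alternatives. These were TPM, which rescales all genes of a library alike, and leaving out each library in turn. None of them varied gene length, so this sameness was nearly fixed beforehand. Of 151 member log2 fold changes under an alternative, 139 moved by less than the spread between replicates. The other 12 moved more: 2 for Cgnl1, 4 for Tjp1, 4 for F11r and 2 for Ocln. Those of Tjp1 and F11r came with library totals alone and the 3 fits on FPKM. Over all genes, edgeR called 926, DESeq2 called 2629, and leaving out each library in turn gave 0 to 1090. No gene passed without PBS replicate 2 (lowest adjusted p = 0.0663, with 3294 genes below 0.05 before adjustment) or PBS replicate 3 (0.0634 and 3092 genes), 85 passed without DOX replicate 1 and 438 without DOX replicate 2. Of the junction genes outside the members, 5 were called, against 10 with library totals alone, 3 with a filter of 5 CPM, which left Jaml and Ildr1 untested, 20 by DESeq2, 8 by limma on log2(FPKM + 1) with a filter of 1 FPKM, and 0 to 6 with each library left out. Library totals alone moved the median log2 fold change of all genes from -0.01 to -0.14 and the share of higher calls from 68.3% to 45.6%. The 3 fits on FPKM, which is likewise scaled by library total without composition factors, gave 42.5% to 51.6%. Deviations of same-numbered libraries from their group means had an r of 0.0949, -0.106 and 0.232, the last being the highest of all PBS and DOX pairs. Not every library correlated best with its own number. With groups of 3 libraries such r cannot show that pairing is absent. The labels name no pairs, so the numbers were not taken as pairs. With the replicate block 781 genes (79.6% higher) and 4 junction genes were called, 4 higher and 0 lower, and Amot was not among them (adjusted p = 0.0705 by edgeR). The cause of these changes was not tested. Depth bears most on Ocln, the member with the fewest counts (29 to 96 per library).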

Other observations

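Markers of other cell types also differed between the libraries. Over all genes tested, 4.38% rose and 2.04% fell by the edgeR fit. Of 9 neutrophil markers 4 were tested and 3 rose, S100a8, S100a9 and Mpo, and the list summed to 1.57 to 3.76 CPM in PBS and 10.3 to 26.8 CPM in DOX. S100a9, a calcium-binding protein of granulocytes, had 1.30, 0.706 and 0.631 CPM in PBS replicates 1, 2 and 3 and 3.66, 4.28 and 8.54 CPM in DOX replicates 1, 2 and 3 (log2 fold change 2.64, SE 0.45, edgeR adjusted p = 0.0290). Of 8 lymphocyte markers tested 1 rose, Nkg7, a granule protein of cytotoxic cells (log2 fold change 2.98, SE 0.49, edgeR adjusted p = 0.0278). Of 12 macrophage markers C1qb and C1qc, subunits of complement C1q, rose, while Mpeg1 and Lyz2, the most abundant, had log2 fold changes of 0.73 and 0.59 (edgeR adjusted p = 0.0890 and 0.238). Mpo, C1qb and C1qc were named after their values were seen.

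Epithelial and stellate markers were mostly not called. Of 7 cholangiocyte markers tested Epcam rose, and the list summed to 334 to 392 CPM in PBS and 416 to 455 CPM in DOX, most of it Anxa4 and Slc4a2. None of 8 mesothelial markers passed, with summed levels of 96.2 to 286 CPM in PBS and 289 to 626 CPM in DOX, and neither did any of 14 hepatocyte, 11 stellate or 3 platelet markers tested. All 14 hepatocyte and all 8 mesothelial markers nevertheless had a positive log2 fold change. Reln, a stellate cell gene, had 44.3, 37.8 and 111 CPM in PBS replicates 1, 2 and 3 and 88.9, 73.0 and 41.8 CPM in DOX replicates 1, 2 and 3, with the PBS replicates in another order than for Jam2, whose lowest was PBS replicate 1.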
